A study of Mus musculus with 2 samples.

Results

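Small leucine-rich proteoglycans are secreted matrix proteins whose core is built of leucine-rich repeats, and many of them carry chondroitin, dermatan or keratan sulfate chains. They bind collagen and set the diameter and spacing of its fibrils, and several also bind growth factors such as transforming growth factor beta. In the heart they are known mainly as products of fibroblasts and other mesenchymal cells, and their genes lie in a few clusters on the autosomes, whereas the gene of biglycan lies on the X chromosome. The 6 genes described here are Bgn (biglycan), Dcn (decorin), Lum (lumican), Ogn (osteoglycin), Prelp and Fmod (fibromodulin), of 25235 genes listed in either library. They were chosen by name, and Bgn because its allelic ratio (the BL6 share of the reads) was at most 0.9 in both libraries, so its allelic ratio is given as a description. All 6 genes were listed in both libraries, and 5 of them, all but Fmod, had at least 20 reads in each.

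The reads come from nuclei of 1 adult heart (9 weeks) and 1 aged heart (78 weeks) of female F1 mice with a C57BL/6J (BL6) mother and a CAST/EiJ (CAST) father. The genotype field names the cross of these strains, while the strain field names a mother heterozygous for a mutation of Xist, and the study's methods describe the animals of this experiment as wild-type. Frozen hearts gave the nuclei, which were stained for DNA, sorted and processed with the 3′ single-nucleus chemistry of 10x Genomics. Only nuclei called as having an active BL6 X chromosome entered these values, and CAST is taken as their inactive X chromosome (Xi). The study made this call from a high, not necessarily complete, BL6 share of a nucleus's X-linked reads. Whether each CAST read came from the Xi of its own nucleus was not tested. All cell types are pooled, and fewer cells of a type and less RNA per cell cannot be told apart here. SNP-overlapping reads numbered 9747535 in the adult and 5805807 in the aged heart, and levels are given in RPM, a gene's reads per 1000000 of these. With 1 library per age no test between the ages was possible, and all intervals are 95% intervals of counting error only, with no measure of the variation between animals. They treat reads as independent, although 1 molecule may have given several reads, so they may be too narrow. A gene was counted as higher or lower in the aged library when its RPM differed at least 1.5-fold.

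The members stand at 4 places of the mouse genome (GRCm38). Bgn lies on the plus strand of chrX:73483601-73495936. Dcn and Lum are neighbours on the plus strand of chromosome 10, at chr10:97479500-97518163 and chr10:97565501-97572703, with 47.3 kb between them. Ogn lies on the plus strand at chr13:49608071-49624500, in a row with Ecm2, Aspn and Omd, and Prelp and Fmod lie on opposite strands of chromosome 1 at chr1:133910304-133929977 and chr1:134037515-134048277. The promoters of Bgn and Ogn, the members with the strongest difference between the libraries in either direction, are given here from 250 bases before to 50 bases after the RefSeq start (GRCm38.p6, plus strand, chrX:73483351-73483650 and chr13:49607765-49608064), with each CG dinucleotide, the site of DNA methylation, in capitals. Methylation of CG-rich promoters is a known feature of silenced genes on the Xi.
Bgn: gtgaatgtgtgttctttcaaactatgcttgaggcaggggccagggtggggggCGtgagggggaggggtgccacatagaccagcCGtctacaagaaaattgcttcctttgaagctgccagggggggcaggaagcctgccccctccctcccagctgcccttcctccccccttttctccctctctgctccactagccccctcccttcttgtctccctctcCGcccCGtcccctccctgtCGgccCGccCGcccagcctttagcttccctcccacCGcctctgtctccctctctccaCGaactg
Ogn: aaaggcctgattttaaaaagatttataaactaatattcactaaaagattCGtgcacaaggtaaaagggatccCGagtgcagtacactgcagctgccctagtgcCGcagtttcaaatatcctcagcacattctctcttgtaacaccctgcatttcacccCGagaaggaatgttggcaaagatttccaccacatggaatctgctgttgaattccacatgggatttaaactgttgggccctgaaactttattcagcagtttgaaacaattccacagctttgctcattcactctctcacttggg
The Bgn window held 9 CG dinucleotides and the Ogn window 4, against a median of 7 over 32851 promoter windows of the same length. At least 9 were found in 45.8% of these windows and at least 4 in 68.6%. The windows of Prelp and Fmod held 7 and 3, and 4 of the 6 members had an entry in the RefSeq table. The Bgn window includes the start of its counted locus. The windows of Ogn and Fmod end before theirs, and that of Prelp lies inside its locus, so these RefSeq starts differ from the counted loci. No methylation was measured in these libraries.

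Bgn encodes biglycan, a core protein of the first class of the family that usually carries a pair of chondroitin or dermatan sulfate chains. In the adult library it had 275 reads from BL6 and 71 from CAST, and in the aged library 522 reads from BL6 and 61 from CAST. The allelic ratio was 0.795 (0.748 to 0.836) in the adult heart and 0.895 (0.868 to 0.919) in the aged heart, and the deposited values, rounded to 2 decimals, were 0.79 and 0.9. The aged interval includes the cutoff of 0.9 by which the gene was chosen. Reads of the CAST allele made up 20.5% (16.4% to 25.2%) of the gene in the adult heart and 10.5% (8.10% to 13.2%) in the aged heart. The allelic ratio was higher by 0.101 (0.0527 to 0.151) in the aged library. The RPM of both alleles was higher in the aged library, but to different degrees. BL6 reads amounted to 28.2 RPM (24.98 to 31.8) in the adult heart and 89.9 RPM (82.4 to 98.0) in the aged heart, a ratio of 3.19 (2.75 to 3.70). CAST reads amounted to 7.28 RPM (5.69 to 9.19) and 10.5 RPM (8.04 to 13.5), a ratio of 1.44 (1.01 to 2.06), and the intervals of the ratios of both alleles were separate. The lower CAST share of the aged library therefore came with more BL6 reads and not with fewer CAST reads on this scale. Before scaling, the CAST reads were 71 and 61, and the interval of the CAST ratio began at 1.01. The direction for CAST therefore depends on the scale, and its ratio was not computed on the other scales tried. Both alleles together gave 35.5 RPM in the adult heart and 100.4 RPM in the aged heart, a ratio of 2.83 (2.47 to 3.24).

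**Figure D1:**
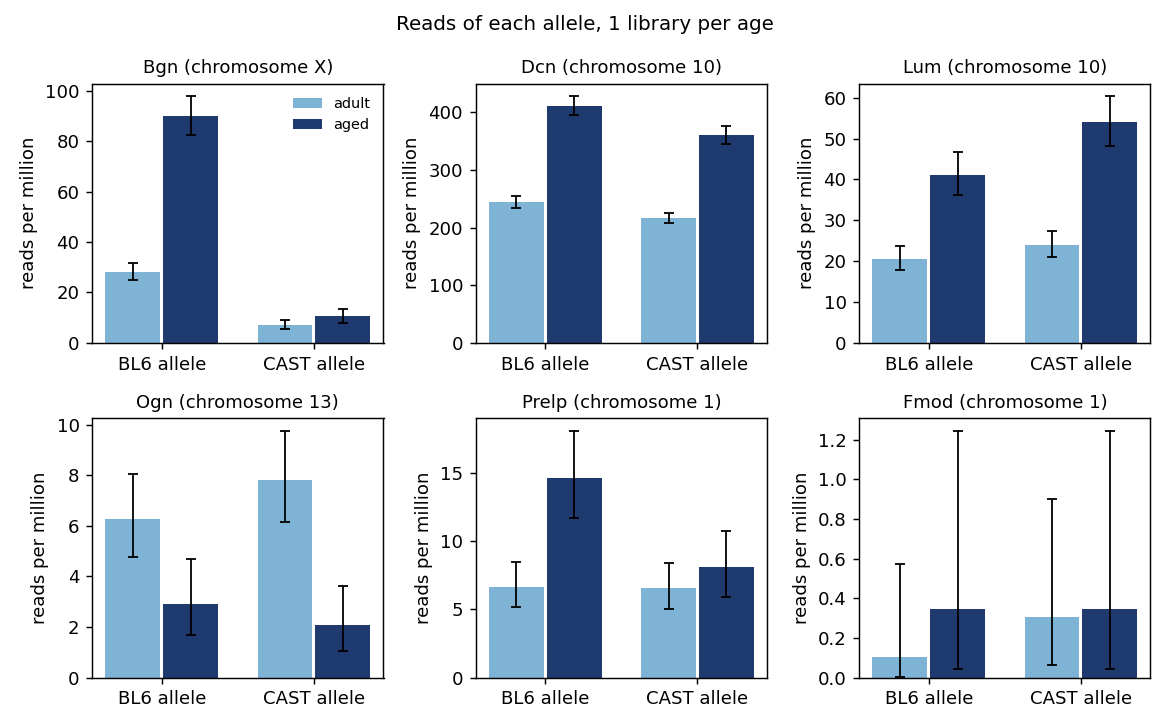
RPM of the BL6 and the CAST allele for the 6 members, with the adult library in light and the aged library in dark blue, 95% Poisson intervals as error bars and a separate vertical scale for each gene. For Bgn the BL6 bar is 3.19 times as high in the aged library and the CAST bar 1.44 times, for Dcn both bars are higher by nearly the same ratio (1.69 and 1.67), and for Ogn both are lower.

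Among the 342 genes of the X chromosome that reached 20 reads in each library, Xist and Tsix left out, 22 (6.43%) had a deposited allelic ratio of 0.9 or lower in both, and Bgn was 1 of them. Its allelic ratio was the 17th lowest of 395 genes with enough reads in the adult heart and the 39th lowest of 348 in the aged heart, where the median allelic ratio was 0.976 in each. The nearest X-linked genes at the cutoff were LOC101055907, with a deposited allelic ratio of 0.89 and 0.88 just inside it, and Srpx2, with 0.92 and 0.93, and Tspan7, with 0.94 and 0.91, just outside. Genes most like Bgn were taken as those with at least 100 reads in both libraries and the smallest summed distance of allelic ratio, over these 2 libraries. They were Jpx, with an allelic ratio of 0.768 in the adult heart and 0.863 in the aged heart, Ftx, with 0.816 and 0.836, and 4930578C19Rik, with 0.728 and 0.880. Jpx and Ftx are noncoding RNA genes next to Xist. Of the 22 genes at or below the cutoff in both libraries, 9 had a higher allelic ratio in the aged library. Over the 193 genes of the X chromosome that reached 100 reads in each library, the allelic ratio was higher in the aged library for 102, the median difference was 0.0012, and a difference of at least 0.05 in this direction was found for 5 (2.59%), of which Bgn had the third largest. The ratio of RPM was also high for an X-linked gene, ranking as the third among the 193. Bgn held 0.925% of the CAST reads of the X chromosome in the adult heart and 1.21% in the aged heart, Xist and Tsix left out.

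**Figure D2:**
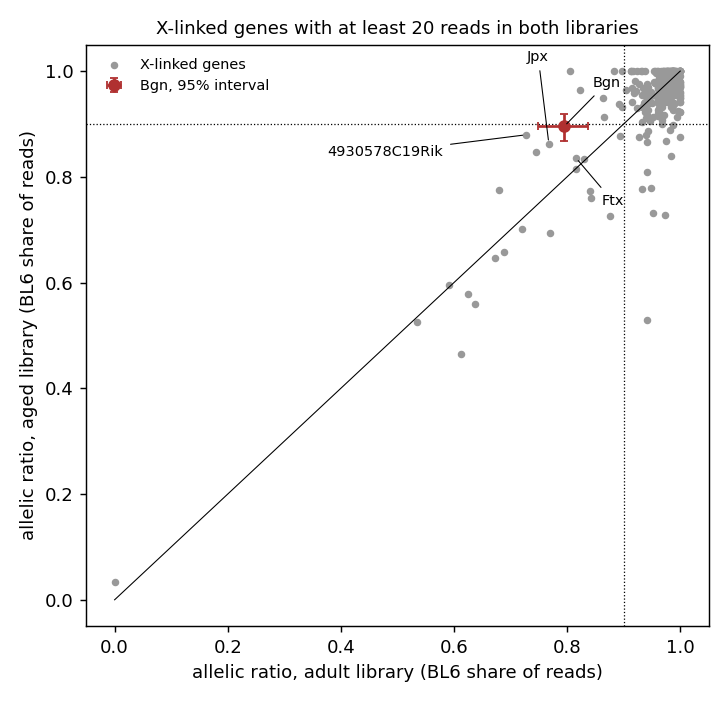
Allelic ratio of 342 X-linked genes in the adult (horizontal axis) and the aged library (vertical axis), where 1 means that all reads came from BL6, dotted lines mark 0.9 and the solid line marks equal values. Bgn, in red with its 95% intervals, lies above the line of equal values at 0.795 and 0.895, near Jpx, Ftx and 4930578C19Rik, while most genes lie in the upper right corner.

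The loci around Bgn had a lower CAST share than Bgn when summed, but few of them had many reads. Within 250 kb of either end, 7 other loci are described, and none of them overlaps Bgn. Together they had 19 CAST reads of 636 in the adult (2.99%, 1.81% to 4.63%) and 22 of 442 in the aged heart (4.98%, 3.15% to 7.44%), below the CAST shares of Bgn in both. The nearest, Atp2b3, starts 7.09 kb from the end of Bgn and had 2 and 3 reads, all from BL6. On the other side Haus7, a subunit of the augmin complex that ends 24.6 kb from Bgn, had 29 reads from BL6 and 2 from CAST in the adult heart and 14 BL6 reads and none from CAST in the aged heart. Zfp275 had an allelic ratio of 0.992 and 0.976, and Bcap31, an endoplasmic reticulum protein gene, had 0.962 (0.938 to 0.978) and 0.939 (0.907 to 0.962). Pnck had 2 BL6 reads in the adult heart, and 2 from BL6 and 1 from CAST in the aged heart. In the aged library the interval of Bgn overlapped that of each of these loci taken singly, and in the adult library it overlapped that of Haus7 and those of loci with under 20 reads. Only 3 of the 7 loci had at least 20 reads in both libraries.

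**Figure D3:**
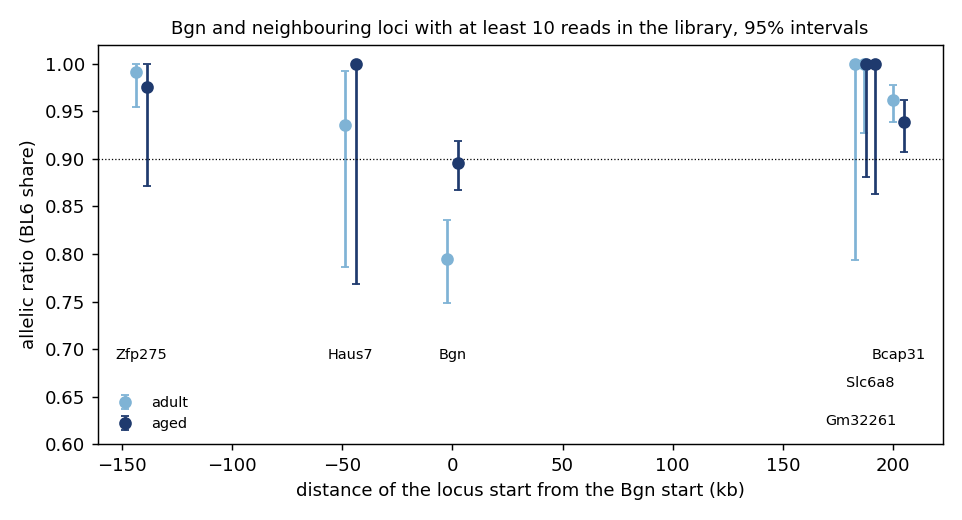
Allelic ratio of Bgn and the described loci within 250 kb that had at least 10 reads in the library, plotted at the distance of their start from the start of Bgn in kb, with the adult library in light and the aged library in dark blue and 95% intervals. Bgn lies lowest in both libraries, at 0.795 and 0.895, and the other loci lie above the dotted line at 0.9.

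Of 13 other X-linked genes of secreted or matrix proteins besides Bgn, 12 were listed and 8 reached 20 reads in each library. These 8 had a lower CAST share than Bgn in both libraries, except Nyx in the aged heart. Srpx, a sushi repeat protein gene, had 11 CAST reads of 407 in the adult heart and 1 of 314 in the aged heart, and Gpc4, a glypican, had 5 of 413 and 2 of 249. Vegfd, a lymphatic growth factor, had 10 of 222 and 0 of 78, which allows a share of up to 4.62% by the exact upper limit. Gpc3 had 6 CAST reads of 508 and 0 of 71. Col4a5, a collagen chain of basement membranes, had 30 CAST reads of 3952 and 51 of 1232. Its allelic ratio was 0.992 (0.989 to 0.995) and 0.959 (0.946 to 0.969), with separate intervals. The ratio of its CAST RPM was 2.85 (1.78 to 4.64). Col4a6, another such chain, had 9 CAST reads of 786 and 10 of 292, and an allelic ratio of 0.989 and 0.966. Nyx (nyctalopin, chrX:13461095-13489321), the other X-linked member of the proteoglycan family, had 20 reads from BL6 and 1 from CAST in the adult heart and 19 reads from BL6 and 7 from CAST in the aged heart, so that its allelic ratio was 0.952 (0.762 to 0.999) and 0.731 (0.522 to 0.884), with overlapping intervals. Its allelic ratio therefore lay above that of Bgn in the adult heart and below it in the aged heart, from 21 and 26 reads. The ratio of RPM differed widely within this list. It was 2.08 for Nyx and 1.87 for Srpx2, and it was below the 1.5-fold limit for Gpc3 (0.235), Col4a5 (0.523), Vegfd (0.590) and Col4a6 (0.624).

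Decorin, the closest relative of biglycan, binds collagen I and carries a single chondroitin or dermatan sulfate chain. Dcn had by far the most reads of the family, 2380 reads from BL6 and 2112 from CAST in the adult heart and 2389 and 2097 in the aged heart. Its allelic ratio was 0.530 (0.515 to 0.545) and 0.533 (0.518 to 0.547), next to the BL6 share of all autosomal reads, which was 53.4% and 53.8%. Dcn amounted to 461 RPM (447 to 475) in the adult heart and 773 RPM (750 to 796) in the aged heart, a ratio of 1.68 (1.61 to 1.75), and the ratio was nearly equal for BL6 (1.69) and CAST (1.67). The allelic ratio of this autosomal gene differed by 0.0027 (-0.0179 to 0.0234) between the libraries, within counting error, while its RPM differed.

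Lumican belongs to the second class, several of whose members carry keratan sulfate. Lum had 201 reads from BL6 and 234 from CAST in the adult heart and 239 and 314 in the aged heart. Its allelic ratio was 0.462 (0.414 to 0.510) and 0.432 (0.390 to 0.475), so CAST reads prevailed in both and the aged interval lay below 0.5. In neither library did its interval reach that of Dcn, its neighbour on the chromosome. The RPM was 44.6 (40.5 to 49.0) in the adult heart and 95.2 (87.5 to 103.5) in the aged heart, a ratio of 2.13 (1.88 to 2.43). Epyc (epiphycan), a cartilage proteoglycan gene of the same cluster, had 54 and 29 reads, and Kera (keratocan), the remaining gene of the cluster, was not listed in either library.

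Prelp encodes a protein of basement membranes that binds collagen and heparan sulfate chains. It had 65 reads from BL6 and 64 from CAST in the adult heart and 85 and 47 in the aged heart. The RPM was 13.2 (11.05 to 15.7) and 22.7 (19.02 to 26.96), a ratio of 1.72 (1.34 to 2.21), and the allelic ratio was 0.504 (0.415 to 0.593) and 0.644 (0.556 to 0.725). This difference in allelic ratio, 0.140 (0.0201 to 0.255), exceeded counting error as computed for independent reads. However, among 2280 autosomal genes with at least 100 and under 200 reads in the shallower library, a difference of 0.1 or more was found for 24.0%. Fmod, which guides collagen fibril assembly in tendon, had 1 reads from BL6 and 3 from CAST in the adult heart and 2 of each in the aged heart. Its ratio of RPM was 1.68 with an interval of 0.313 to 9.01, so no difference could be seen at this depth. Optc (opticin), on the other side of Prelp, had 3 reads in each library.

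Ogn encodes osteoglycin, also called mimecan, a member of the third class. It was the only member with fewer RPM in the aged library. It had 61 reads from BL6 and 76 from CAST in the adult heart and 17 and 12 in the aged heart, that is 14.1 RPM (11.8 to 16.6) and 5.00 RPM (3.35 to 7.17). The ratio was 0.355 (0.229 to 0.534), or 2.81-fold lower in the aged library, and both alleles were lower, with ratios of 0.468 for BL6 and 0.265 for CAST. The allelic ratio was 0.445 (0.360 to 0.533) and 0.586 (0.389 to 0.765) with overlapping intervals, and differences of 0.1 or more were found for 45.7% of the autosomal genes with under 100 reads in the shallower library.

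The neighbours of Ogn also had ratios of RPM below 1, though only Aspn was counted as lower by the fold and read limits. In the row Ecm2, Aspn, Omd and Ogn, which spans 120 kb of chromosome 13, Ecm2 had 165 reads in the adult heart and 71 in the aged heart, a ratio of RPM of 0.722 (0.539 to 0.960). Aspn (asporin), a relative of decorin that inhibits transforming growth factor beta, had 76 and 27 reads, a ratio of 0.596 (0.370 to 0.936). Omd (osteomodulin) had 29 and 6 reads, a ratio of 0.347 (0.118 to 0.851). All 4 intervals lay below 1, and the 4 genes together had a ratio of 0.549 (0.448 to 0.669). By comparison, the listed genes of the chromosome 10 cluster together had 1.71 (1.64 to 1.78) and those of the chromosome 1 cluster 1.72 (1.34 to 2.19), but these sums are mostly those of single genes. Dcn had 4492 of the 4981 adult reads on chromosome 10, where Epyc had a ratio of 0.902, and Prelp had 129 of 136 on chromosome 1. Cenpp, a centromere protein gene on the opposite strand, spans all 4 genes of the chromosome 13 row and had 895 reads in the adult heart and 332 in the aged heart, a ratio of 0.623 (0.547 to 0.707). Whether the counting used strand is not stated, and if it did not, reads of Cenpp and of the 4 proteoglycan genes cannot be told apart. The other 5 members overlap no other listed locus.

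**Figure D4:**
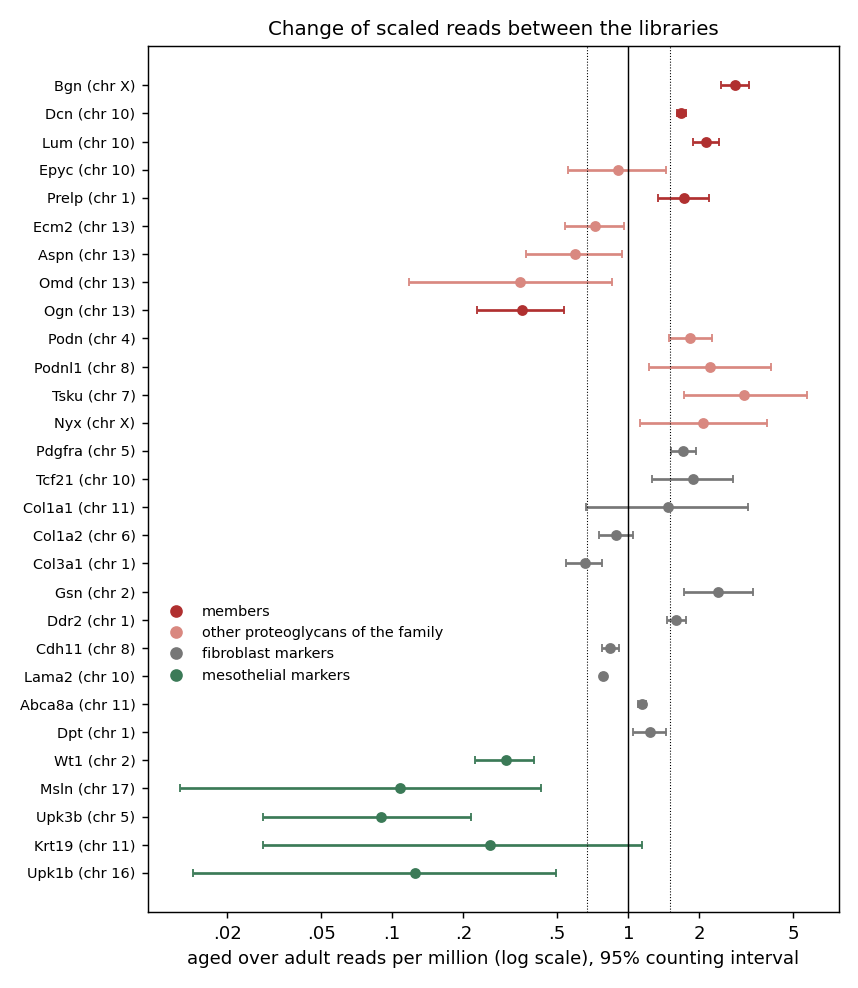
Ratio of aged to adult RPM on a log scale for the members other than Fmod (red), other genes of the family (pink), fibroblast markers (gray) and mesothelial markers (green), with 95% intervals; the solid line marks 1 and the dotted lines mark 1.5-fold in either direction. Bgn (2.83), Lum (2.13), Prelp (1.72) and Dcn (1.68) lie to the right and the 4 genes of the chromosome 13 row to the left, down to 0.347 for Omd and 0.355 for Ogn.

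Of the 5 members with at least 20 reads in both libraries, 4 were at least 1.5-fold higher in the aged library and 1 was lower. Among all 12736 genes with as many reads, 28.0% were higher by this limit and 11.8% lower (3571 and 1500 genes, or 2268 and 2350 when the median ratio of autosomal genes is set to 1, a scale on which 2 members, Bgn and Lum, were higher, while Dcn had 1.44 and Prelp 1.47), and the median ratio was 1.17 against 1.72 for the 5 members. The order of the ratios was Bgn, Lum, Prelp, Dcn and Ogn, in which Bgn lay above Lum and Ogn below Dcn with separate intervals, the intervals of Lum and Prelp overlapped, and that of Prelp included the whole interval of Dcn. The proportions among the members do not depend on any scale common to all genes. Relative to Dcn they differed between the libraries for Bgn, Lum and Ogn, and little for Prelp. For every 100 reads of Dcn there were 7.70 of Bgn in the adult heart and 12.996 in the aged heart, 9.68 and 12.3 of Lum, 2.87 and 2.94 of Prelp, and 3.05 and 0.646 of Ogn. Per kb of locus, the RPM was highest for Dcn in both libraries (11.9 and 19.98), followed by Lum (6.20 and 13.2) and Bgn (2.88 and 8.14), and lower for Ogn (0.855 and 0.304), Prelp (0.673 and 1.16) and Fmod (0.0381 and 0.0640). The number of SNPs per gene is not part of these values, so this order also depends on it.

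The ratio of RPM depended on the length of the locus over the whole genome. Its median was 1.38 for autosomal genes under 10 kb, 1.24 from 10 to 20 kb, 1.15 from 20 to 50 kb and 1.00 at 100 kb or more, and the share of genes at least 1.5-fold higher was 43.3% under 10 kb and 19.5% at 100 kb or more. The loci of the members span 7.20 kb (Lum) to 38.7 kb (Dcn). Against the median of autosomal genes of similar length, within 2-fold, the ratio was 2.28 for Bgn, 1.60 for Lum, 1.46 for Dcn and 1.46 for Prelp, so that neither Dcn nor Prelp reached 1.5. The part of locus length in the members' values was not tested. Among X-linked genes the allelic ratio had a median of 0.964 in the adult heart and 0.968 in the aged heart for the 50 genes of 10 to 20 kb, to which Bgn belongs, and 0.980 and 0.982 for the 93 genes of 100 kb or more.

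**Figure D5:**
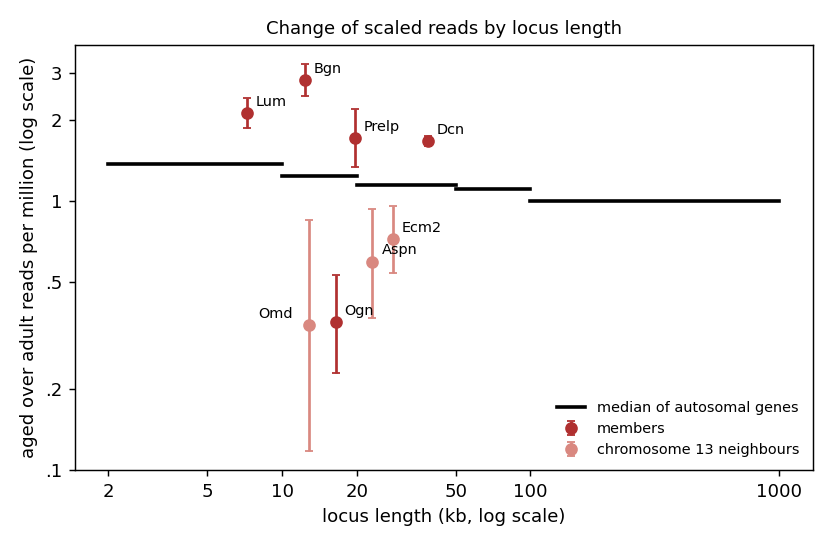
Ratio of aged to adult RPM against locus length in kb, both on log scales, for the 5 members with at least 20 reads in both libraries (red) and the other genes of the chromosome 13 row (pink), with 95% intervals. Black bars give the median of autosomal genes in each length class, from 1.38 under 10 kb to 1.00 at 100 kb or more, where the first and last class have no outer limit. Bgn, Lum, Prelp and Dcn lie above their bars and the chromosome 13 genes below.

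Markers of cell types were set beside these values, since the nuclei are pooled. Over nuclei of either active X chromosome, the study reported a larger share of fibroblasts and a smaller share of cardiomyocytes in the aged heart. The part of this shift in the members' values was not tested. All 11 fibroblast markers were listed in both libraries, with a summed level of 3939 RPM in the adult heart and 3530 RPM in the aged heart, a ratio of 0.896, of which Lama2, a laminin chain that is not limited to fibroblasts, made up 68.98% and 60.3%. Without Lama2 the summed ratio was 1.15, and most of the remaining reads were those of Abca8a, with 7353 and 5010 reads and a ratio of 1.14. Among the 10 markers with at least 20 reads in both, 4 were at least 1.5-fold higher, 1 was lower and the median ratio was 1.19. Pdgfra, a receptor used to sort cardiac fibroblasts, had a ratio of 1.71, Tcf21, a fibroblast lineage factor, of 1.87, Gsn of 2.40 and Ddr2 of 1.60, and Col3a1, a fibrillar collagen chain, of 0.654. Col1a2 had 0.888, Cdh11 0.839 and Dpt 1.24, and Col1a1 had 16 and 14 reads. Pericyte and smooth muscle markers, 7 of 8 listed, were at 210 RPM in sum in the adult heart and 493 RPM in the aged heart (2.34-fold). Endothelial markers were at 577 and 1003 RPM and macrophage markers at 308 and 504 RPM. Cardiomyocyte markers were at 28385 and 26639 RPM in sum, but the 7 genes differed, with a median ratio of 1.15. Of these, 2 were at least 1.5-fold higher, Actc1 with 4.11 and Myl2 with 1.80, and 4 lay between. Ttn, with 115497 of the 276681 adult reads of this list, was lower, with 0.580. Mesothelial markers, which label the outer lining of the heart, were at 50.6 and 12.1 RPM in sum, a ratio of 0.238 (0.183 to 0.307). The mesothelial factor Wt1 had 328 and 59 reads, Upk3b 94 and 5, Msln 31 and 2, Upk1b 27 and 2 and Krt19 13 and 2, and none of the 5 was at 0 in either library. These markers were lower in the aged library, as were Ogn and the chromosome 13 row, and their part in those values was not tested, nor was that of pericytes or fibroblasts in Bgn. Adipocyte markers were at 23.0 and 20.5 RPM and Schwann cell markers at 111 and 139 RPM.

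Beyond the members, 11 further genes of the family and its clusters were followed, of which 10 were listed and 6 reached 20 reads in each library. Podn (podocan) had 174 and 190 reads, a ratio of 1.83 (1.48 to 2.27), and its allelic ratio was 0.460 and 0.526. Podnl1, its closest relative, had 22 and 29 reads, a ratio of 2.21 (1.23 to 4.04), and overlaps Cc2d1a. Tsku (tsukushi) had 19 and 35 reads, just under the limit in the adult library, with a ratio of 3.09 (1.72 to 5.72). Chad (chondroadherin) was listed with 1 read in the aged library. Of the 6 genes with enough reads, which leave out Tsku, 3 were at least 1.5-fold higher (Podn, Podnl1 and the X-linked Nyx). Of the others, 1 was lower (Aspn) and 2 lay between (Ecm2 and Epyc). The median ratio was 1.37, against 28.0% higher, 11.8% lower and a median of 1.17 over all genes.

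Among 21 other proteoglycan core proteins, 14 had at least 20 reads in both libraries, of which 9 were at least 1.5-fold higher and 1 was lower, with a median ratio of 1.70. Those of the extracellular space that were higher were Vcan (versican), with a ratio of 2.73, Hspg2 (perlecan, of basement membranes), with 1.99, Prg4 (lubricin), with 3.06, and Spock2, with 2.31. Those of the cell surface that were higher were Cspg4, a pericyte antigen, with 3.44, the syndecans Sdc3, with 3.43, and Sdc2, with 1.59, and the glypicans Gpc5, with 1.71, and Gpc6, with 1.69. Between the limits lay Agrn (agrin, of basement membranes), with 0.894, the glypicans Gpc1, with 0.731, and Gpc4, with 1.01, and the syndecan Sdc4, with 1.01. Gpc3, with 0.235, was the only one of these 14 lower by the limit, and Spock3, with 109 and 15 reads, had too few reads in the aged library. The enzymes that build chondroitin and dermatan sulfate chains were represented by 17 of 21 genes, of which 9 were at least 1.5-fold higher and none was lower, with a median of 1.57. The xylosyltransferases Xylt1 (2.07) and Xylt2 (1.93) and the galactosyl- and glucuronosyltransferases B4galt7 (2.16) and B3gat3 (1.70) make the linker on which the chains start. Dse, the epimerase that turns chondroitin into dermatan sulfate, had 1.95, the sulfotransferases Chst11, Chst12 and Ust had 1.86, 1.59 and 1.57, and the polymerizing factor Chpf2 had 1.82. Csgalnact1, which starts the chondroitin chain, had the lowest ratio of the list, 0.741 (0.692 to 0.794). For both lists the share over all genes was 28.0% higher and 11.8% lower, with a median of 1.17.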

How the data were processed

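Nuclei of 1 adult and 1 aged female F1 heart were analysed, grouped by the age in the labels (the aged file's own name differs from its label in the weeks). Alignment by the authors used Cell Ranger (7.1.0 in the submitters' processing notes), after which they split the reads by nucleus, pooled the nuclei with an active BL6 X chromosome per age and ran Allelome.PRO2 with RefSeq genes of GRCm38 (mm10). The deposited counts are SNP-overlapping reads of the BL6 and CAST allele per gene, not normalized. The deposited fraction is the BL6 share, rounded to 2 decimals. The deposited score of allelic bias was not used. Nuclei were assigned by the BL6 share of all their X-linked reads. Doublets were removed from the expression matrices with DoubletFinder, and whether this also held for the nuclei behind these counts is not stated. Counting by strand and collapse of duplicates are not stated for these counts in the sources used here, and 1 molecule may have given several reads. Background RNA was removed with CellBender for the expression matrices. These counts were made from reads of the Cell Ranger alignments, for which no such removal is described. The part of background RNA in the CAST share was not tested. Starts, which the files count from 0, were raised by 1.

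RPM, allelic ratio from the reads, exact Clopper-Pearson, Poisson and conditional ratio intervals and Newcombe intervals of differences in allelic ratio were computed with Python 3.11.15 and scipy 1.17.1. The functions were tested on simulated reads. The minimum was 20 reads per library and the fold 1.5. The genes of the study that were excluded for their allelic ratio in males were kept in the counts of X-linked genes. Strands come from GENCODE M21, promoters from RefSeq. Members and lists were chosen with earlier results of these data known. Genes of a list are named when past the fold or at its extremes, and fibroblast and mesothelial markers and the genes of the clusters are also named below these limits, after their values were seen. Alternatives were other scales, single alleles, read minimums, folds and cutoffs; those by locus length and without Lama2 were added after the data were seen. Among the loci near Bgn, 1 is not reported here.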

Additional observations from a re-analysis of the deposited data

Results flagged for a closer look

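Epyc, an autosomal neighbour of Dcn and Lum, passed from mostly BL6 to mostly CAST reads between the libraries. It had 39 reads from BL6 and 15 from CAST in the adult heart and 7 reads from BL6 and 22 from CAST in the aged heart, so that its allelic ratio was 0.722 (0.584 to 0.835) and 0.241 (0.103 to 0.435), a fall of 0.481 (0.258 to 0.637) with intervals on opposite sides of 0.5. The difference was not tested, since each age has 1 library. Among autosomal genes with 20 to 100 reads in the shallower library, 45.7% differed by 0.1 or more. Tsku, with 19 and 35 reads, differed in the other direction, with an allelic ratio of 0.316 and 0.743. Its rise was 0.427 (0.150 to 0.626). The locus overlaps Gm10754, and the RPM of Epyc was 5.54 and 5.00.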

How the results depend on the processing

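No paired analysis was possible because each age has 1 library. The allelic ratio of Bgn stayed within its interval with the deposited ratio and with odds divided by those of autosomal reads. Scaled by the median ratio of autosomal genes, the ratio of RPM was 2.42 for Bgn, 1.83 for Lum, 1.44 for Dcn and 1.47 for Prelp. Scaled to fibroblast markers it was 1.87 for Dcn, and to these without Lama2 2.47 for Bgn, 1.86 for Lum, 1.46 for Dcn and 1.498 for Prelp. Most reads of this last scale were those of Abca8a. Without the 100 loci with the most reads Dcn had 1.59. Against genes of similar length it was 2.28 for Bgn, 1.60 for Lum, 1.46 for Dcn and 1.46 for Prelp, so that Dcn and Prelp fell below 1.5 here, with the median ratio and without Lama2. From CAST reads alone, in RPM, it was 1.44 for Bgn and 1.23 for Prelp. Ogn stayed within its interval under every alternative run. Of 4 members higher, 2 (Bgn and Lum) were past a fold of 2, and 2 (Bgn and Lum) were past 1.5 with the median ratio. No member was lower (0 against 1) at a minimum of 50 or 100 reads or without overlapping loci, since Ogn is then left out. Over all genes, the 3571 higher and 1500 lower became 1747 and 726 at 100 reads, 5564 and 2544 at the smaller fold tried, 1467 and 655 at a fold of 2, 2121 and 804 without overlapping loci, and 2268 and 2350 with the median ratio. X-linked genes at or below the cutoff, 38 adult, 43 aged and 22 in both, became 20, 14 and 12 at 100 reads and 103, 102 and 53 at a cutoff of 0.95. The aged number was 26 at 50 reads and 27 at a cutoff of 0.85. Counts at 50 or 100 reads or without overlapping loci come from fewer genes, so they cannot be compared as shares. Of the X-linked genes, 342 reached 20 reads in both libraries and 193 reached 100. Where no construction of the alternative shows it, the cause was not tested. At 20 to 100 reads, as for Ogn and Nyx, intervals of allelic ratio are wide, and Fmod is below any reading.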
